A study of Mus musculus with 13 samples.

Results

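The genes of the cytosolic translation initiation factors were described in hearts of OMA1+/- C10 G58R mice treated with antisense oligonucleotides (ASOs) against Oma1. Members were all genes whose symbol in the array annotation starts with Eif followed by a digit from 1 to 6, without the Y-linked copy of the eIF2 gamma subunit. They came to 47 of 19505 named genes, each measured by 1 transcript cluster of the 22206 tested. They include the 4 kinases of eIF2 alpha (Eif2ak1 to Eif2ak4), subunits of eIF2, of its exchange factor eIF2B and of eIF3, the cap-binding and helicase factors of the eIF4 family, and proteins that bind eIF4E. Eif1, Eif5, Eif2s1 (eIF2 alpha), Eif3g, Eif3j1, Eif4a2, Eif4g1 and Eif4ebp3 were not analysed here.

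Heart RNA was measured on Clariom S Mouse arrays, 1 per sample, with 5 arrays of OMA1 ASO1, 3 of OMA1 ASO2 and 5 of CTRL ASO, a nontargeting ASO. All mice, controls included, carried the G58R mutation of C10 (CHCHD10, a protein of the mitochondrial intermembrane space) and had 1 disrupted copy of Oma1 by genotype. They were 33 weeks old and were injected under the skin once a week at 50 mg/kg. OMA1 is a protease of the inner mitochondrial membrane, and no array of wild-type mice or of uninjected mice entered the comparison.

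Initiation starts when eIF2 bound to GTP brings the initiator tRNA to the small ribosomal subunit, with eIF1, eIF1A and eIF3. The eIF4F complex, made of the cap-binding protein eIF4E, the helicase eIF4A and the scaffold eIF4G, recruits the mRNA. After the start codon is found, eIF2 is released with GDP and eIF2B recharges it. Phosphorylation of eIF2 alpha by HRI (Eif2ak1), PKR (Eif2ak2), PERK (Eif2ak3) or GCN2 (Eif2ak4) blocks eIF2B, lowers general initiation and favours translation of Atf4 mRNA, which is the integrated stress response (ISR). In stressed mitochondria, OMA1 cleaves DELE1, which activates HRI. The arrays report RNA only, and phosphorylation of eIF2 alpha and translation were not analysed here.

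The array background was taken on each array as the highest of its 23 groups of background probe sets, at log2 signals of 5.77 to 6.07. Of the 47 members, 41 lay above background on all 13 arrays, 5 on some arrays and 1 on none. Oma1 had a mean log2 signal of 4.83 in hearts of OMA1 ASO-treated mice, below background on all 8 arrays, against 9.41 in those of CTRL ASO-treated mice. It was thus at least 10.7-fold lower (limma adjusted p = 7.08e-09). All 8 measured cardiomyocyte markers lay above background on all arrays, and their mean level was 18.4 to 18.6 on OMA1 ASO arrays and 18.4 to 18.5 on CTRL ASO arrays. Of 6 lymphocyte and 4 adipocyte markers, 5 and 4 were above background on no array. Of the markers of cardiomyocytes, atrium, endothelium, fibroblasts, smooth muscle, macrophages, lymphocytes, erythroid cells, adipocytes and skeletal muscle, 0 passed the adjusted p under 0.01 in any comparison (limma), but several differed at an unadjusted p under 0.05. With OMA1 ASO1 these included all 4 smooth muscle markers (1 of them, Cnn1, below background on all arrays). Of the 4, only Acta2 was below 0, at a log2 fold change of -0.98, Myh11 was highest at 1.36, and the median was 0.90. They also included 3 of 5 endothelial, 1 of 8 cardiomyocyte, 1 of 4 atrial and 1 of 5 macrophage markers. The 5 endothelial markers had -0.45 to 0.72 with a median of 0.51, and 2 of them were below 0. With OMA1 ASO2, 2 of 5 macrophage markers, 1 of 2 erythroid markers and 1 of 4 smooth muscle markers had an unadjusted p under 0.05. That smooth muscle marker was Acta2 at -1.93 (limma adjusted p = 0.0427). In OMA1 ASO2 over OMA1 ASO1 all 4 smooth muscle markers were below 0 and all 5 macrophage markers above 0, with 3 and 2 at an unadjusted p under 0.05. There, 3 of 5 endothelial, 1 of 8 cardiomyocyte, 1 of 4 atrial and 1 of 6 lymphocyte markers also had an unadjusted p under 0.05. In the pooled comparison, 2 of 5 endothelial, 2 of 4 smooth muscle, 1 of 4 atrial and 1 of 5 macrophage markers did. The mean smooth muscle level was 7.54 to 9.59 on OMA1 ASO arrays and 7.40 to 9.21 on CTRL ASO arrays. The endothelial level was 11.06 to 11.57 on OMA1 ASO arrays and 10.85 to 11.45 on CTRL ASO arrays. Macrophage markers averaged 6.48 to 8.18 on OMA1 ASO arrays and 6.77 to 7.77 on CTRL ASO arrays, and fibroblast markers 8.85 to 11.81 on OMA1 ASO arrays and 9.70 to 11.96 on CTRL ASO arrays. The part of these markers in the members' results was not tested. In such bulk tissue, fewer cells of a type and less RNA per cell cannot be told apart. On OMA1 ASO1 replicate 1 the skeletal muscle genes Myh4, Tnnt3 and Mylpf reached 11.95, 11.16 and 8.99, while they were below background on all other arrays. OMA1 ASO1 replicate 5 correlated least with its own group (mean r = 0.974, against 0.984 to 0.990 for every other array), and had the lowest Col3a1 and Csf1r signals of all arrays, at 4.53 and 5.17. Counts of called members are therefore also given without these arrays.

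Among the members, 3 were lower and 0 were higher in hearts of OMA1 ASO-treated mice than in those of CTRL ASO-treated mice (limma, Benjamini-Hochberg adjusted p under 0.01 over all clusters). These were Eif3c, a core subunit of eIF3, Eif2s2, the beta subunit of eIF2, and Eif4ebp1, a repressor of the cap-binding protein eIF4E. Of all 22206 clusters, 0.806% were lower and 0.23% higher by the same rule. Of the 8095 clusters above background on all arrays, 1.53% were lower and 0.494% higher. At an adjusted p under 0.05, 6 members were lower and 0 higher, with Eif4a1, Eif4b and Eif3d as the additional genes. Of all clusters, 1.68% were lower and 0.603% higher at that threshold, and 3.19% and 1.35% of those above background on all arrays. An unadjusted limma p under 0.05 was found for 16 of 47 members. Eif1ax, with an unadjusted limma p of 0.0439, ranked 2623 among all clusters, so many clusters beyond the members had such p-values. Their share of all clusters is not given here. This count and those of member groups and other lists are thus not read as results about their genes. Without OMA1 ASO1 replicate 5, or without both OMA1 ASO1 arrays that stood apart, 5 members passed the adjusted p under 0.01, all lower, and without OMA1 ASO1 replicate 1 alone 2 did. The shares of all clusters called in these settings are not given here, so these counts are not read as a result about the members.

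**Figure D1:**
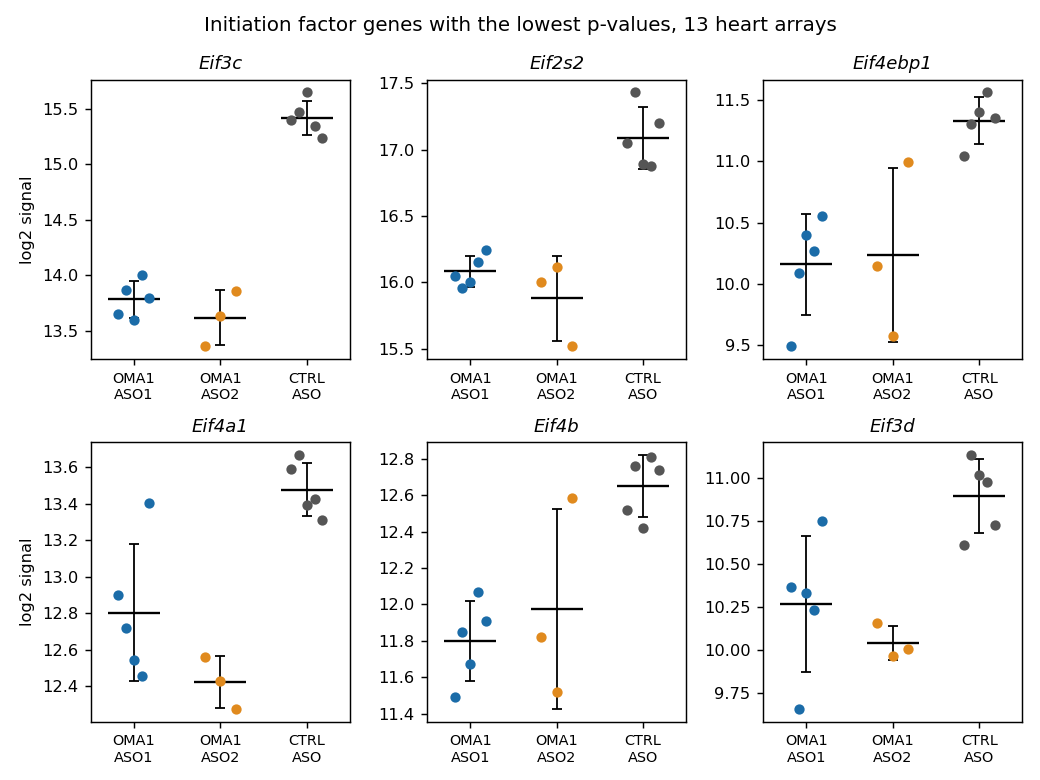
Log2 signal (y axis, each panel with its own range that does not start at 0) of the 6 members with the lowest p in the comparison of OMA1 ASO with CTRL ASO, by treatment. Points are arrays, lines are means and bars are ± 1 SD (n = 5, 3 and 5). For Eif3c, Eif2s2 and Eif4ebp1 every OMA1 ASO array lies below every CTRL ASO array. For Eif4a1, Eif4b and Eif3d single OMA1 ASO arrays reach the CTRL ASO range, such as OMA1 ASO1 replicate 5 at 13.40 for Eif4a1.

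Eif3c had the lowest p of all members. Its log2 signals were 13.65, 13.87, 13.60, 14.001 and 13.79 on OMA1 ASO1 arrays, 13.36, 13.63 and 13.86 on OMA1 ASO2 arrays, and 15.39, 15.47, 15.65, 15.34 and 15.24 on CTRL ASO arrays. The highest OMA1 ASO array thus lay more than 1 log2 unit below the lowest CTRL ASO array, and both ASOs occupied the same range. The log2 fold change was -1.70 (standard error, SE, 0.141, 95% interval -1.995 to -1.40, limma adjusted p = 8.30e-07), or 3.25-fold lower, and ranked 21 by p among all clusters. It was -1.64 with OMA1 ASO1 (adjusted p = 8.54e-06) and -1.80 with OMA1 ASO2 (adjusted p = 1.52e-05), and its difference of OMA1 ASO2 from OMA1 ASO1 was -0.16 (95% interval -0.55 to 0.22, adjusted p = 0.881).

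Eif2s2 also fell with both ASOs. It had 16.05, 15.96, 16.00, 16.15 and 16.24 on OMA1 ASO1 arrays, 16.01, 16.11 and 15.52 on OMA1 ASO2 arrays, and 17.05, 17.43, 16.89, 16.87 and 17.20 on CTRL ASO arrays. OMA1 ASO2 replicate 3 was the lowest, and no OMA1 ASO array reached the CTRL ASO range. Fitted over both ASOs, the difference was -1.08 log2 units (SE 0.152, 95% interval -1.40 to -0.76, limma adjusted p = 3.94e-04), or 2.12-fold lower. It was -1.01 with OMA1 ASO1 (adjusted p = 0.00266) and -1.21 with OMA1 ASO2 (adjusted p = 0.00231). Each ASO's own call was lost without certain single arrays. With OMA1 ASO1 the adjusted p became 0.0115 when CTRL ASO replicate 2 was left out, 0.0101 when OMA1 ASO1 replicate 2 was, and 0.0105 when OMA1 ASO1 replicate 3 was. With OMA1 ASO2 it was 0.0219 without OMA1 ASO2 replicate 3.

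Eif4ebp1 encodes 4E-BP1, which in its hypophosphorylated form holds eIF4E away from eIF4G and which mTORC1 inactivates. Its log2 signals were 9.49, 10.09, 10.40, 10.27 and 10.56 on OMA1 ASO1 arrays, 10.15, 9.58 and 10.99 on OMA1 ASO2 arrays, and 11.04, 11.30, 11.40, 11.56 and 11.36 on CTRL ASO arrays. OMA1 ASO2 replicate 3 came within 0.1 of the lowest CTRL ASO array, and the spread was wider in OMA1 ASO-treated hearts (SD 0.493, n = 8) than in CTRL ASO-treated hearts (SD 0.188, n = 5). Over both ASOs the fitted difference was -1.14 log2 units (SE 0.218, 95% interval -1.60 to -0.68, limma adjusted p = 0.00688), or 2.21-fold lower. Against CTRL ASO, neither ASO alone passed, with -1.17 for OMA1 ASO1 (adjusted p = 0.0180) and -1.09 for OMA1 ASO2 (adjusted p = 0.0715). The pooled call was lost without any single CTRL ASO array (adjusted p = 0.0121 to 0.0306) and without any of OMA1 ASO1 replicates 1 to 4 or OMA1 ASO2 replicates 1 and 2 (adjusted p = 0.0109 to 0.0153), with log2 fold changes of -1.04 to -1.21 throughout.

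Each ASO alone called 2 members lower and 0 higher against CTRL ASO, Eif3c and Eif2s2, where 0.721% of all clusters were lower and 0.198% higher with OMA1 ASO1 and 0.576% lower and 0.185% higher with OMA1 ASO2. Between OMA1 ASO2 and OMA1 ASO1, 0 members passed (limma), against 0.036% of all clusters lower and 0.0675% higher. There, 0 members had an unadjusted p under 0.05 either, and Eif2b3, with the lowest limma p of the members (0.0834), ranked 2630 among all clusters. At an adjusted p under 0.05, 4 members were lower with OMA1 ASO1 (1.25% of all clusters lower, 0.608% higher), 3 with OMA1 ASO2 (1.08% lower, 0.518% higher) and 0 between the ASOs (0.063% lower, 0.167% higher). Both comparisons with CTRL ASO share the 5 control arrays. By exact two-sided permutation of 8 OMA1 ASO against 5 CTRL ASO arrays, p was 7.77e-04 for Eif3c and for Eif2s2, the smallest p that 1287 arrangements allow, and p = 0.00155 for Eif4ebp1. The permutation was run only for members with a limma adjusted p under 0.05, on the same values and without correction for that choice. It is thus no separate support. Groups that do not overlap give a p at or near the smallest one. Eif3c, Eif2s2 and Eif4ebp1 were the members without overlap between OMA1 ASO and CTRL ASO arrays, all with the OMA1 ASO arrays lower, against 1.39% of all clusters without overlap and lower and 0.504% without overlap and higher (2.82% and 1.11% of those above background on all arrays).

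The log2 fold change was below 0 for 36 of 47 members, with a median of -0.25, beside a median of 0.01 and 47.6% below 0 over all clusters. Over the 41 members above background on all arrays the median was -0.20, with 31 below 0, beside a median of -0.03 and 53.4% below 0 over the 8095 such clusters. The median over members was -0.22 with OMA1 ASO1, -0.23 with OMA1 ASO2 and -0.04 for OMA1 ASO2 over OMA1 ASO1. By array, the median difference of the members from their CTRL ASO mean was -0.38 to -0.17 on 7 of the 8 OMA1 ASO arrays, with 31 to 36 of the 47 members below that mean. On OMA1 ASO1 replicate 5 it was 0.01, with 23 of 47 below, and on CTRL ASO arrays it was -0.13 to 0.06, with 17 to 28 below. The same values by array over all clusters are not given here, so these counts by array are not read as a result about the members.

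**Figure D2:**
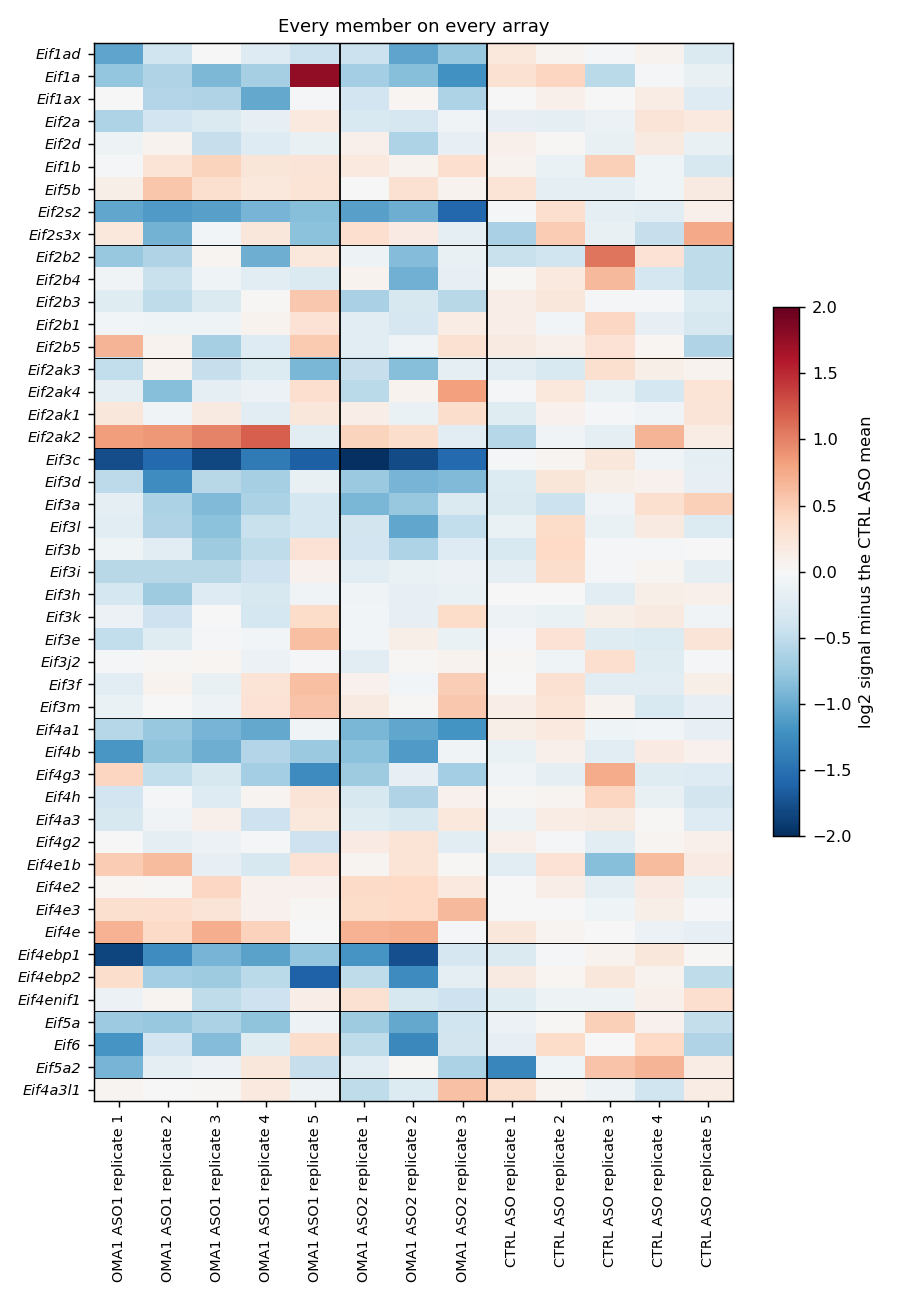
Difference of each member's log2 signal from its CTRL ASO mean (colour, from -2 in blue to 2 in red), with the 47 members in rows by role and the 13 arrays in columns by treatment. Eif3c, Eif2s2 and Eif4ebp1 are blue on all 8 OMA1 ASO columns. OMA1 ASO1 replicate 5 differs from its group in several rows, such as Eif1a at 12.39.

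The eIF2 complex, which carries the initiator tRNA, was represented by 2 measured subunits, of which Eif2s2 was lower and Eif2s3x, the X-linked gamma subunit, did not pass. Eif2s3x had log2 signals of 14.67, 13.52, 14.41, 14.69 and 13.64 on OMA1 ASO1 arrays, 14.80, 14.63 and 14.29 on OMA1 ASO2 arrays, and 13.81, 14.97, 14.32, 13.998 and 15.22 on CTRL ASO arrays. It differed by -0.13 (SE 0.269, limma adjusted p = 0.909), and the groups overlapped in part. Its signals followed another division of the arrays. On 4 arrays, OMA1 ASO1 replicates 2 and 5 and CTRL ASO replicates 1 and 4, the Y-linked genes Uty and Kdm5d lay above background (Uty at 9.23 to 11.01), and there Eif2s3x was at 13.52 to 13.998. On the other 9 arrays Uty was at 2.86 to 4.16 and Eif2s3x at 14.29 to 15.22. Kdm6a and Kdm5c, X-linked genes known like Eif2s3x to escape X inactivation in mice, had the same division, with Kdm6a at 10.50 to 11.04 on the 4 arrays and 11.64 to 12.55 on the 9. Ddx3x, the remaining gene listed here as escaping, had 14.77 to 15.74 on the 4 arrays and 15.56 to 16.07 on the 9, which overlapped. The labels used here give no sex. Eif1ax, another X-linked member, had 9.46 to 10.20 on the 4 arrays and 9.02 to 10.15 on the 9, without such a division. No OMA1 ASO2 array was among the 4. With the mean of both Y-linked genes as a covariate, Eif3c and Eif2s2 were still called in the pooled comparison, and Eif4ebp1 was not (adjusted p = 0.0136, log2 fold change -1.13).

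**Figure D3:**
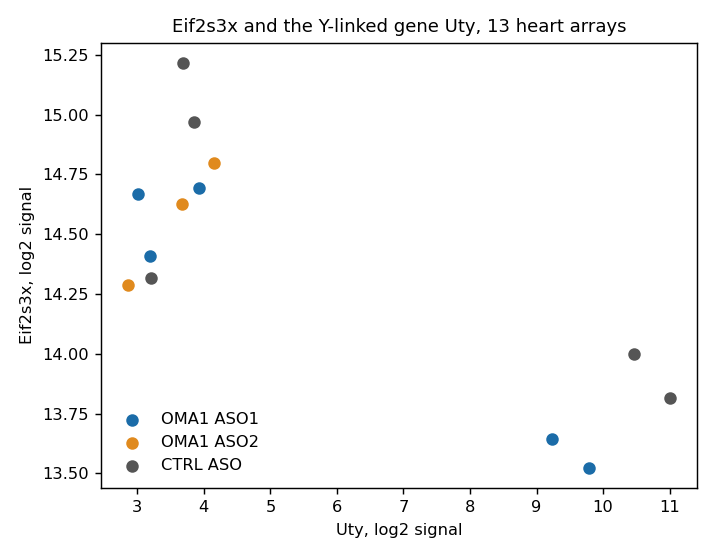
Log2 signal of Eif2s3x (y axis) against that of the Y-linked gene Uty (x axis), with 1 point per array coloured by treatment; neither axis starts at 0. The 4 arrays with Uty at 9.23 to 11.01 have Eif2s3x at 13.52 to 13.998, and the other 9 arrays have it at 14.29 to 15.22.

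Of the 4 eIF2 alpha kinases, 0 passed in any comparison (limma, adjusted p under 0.01), and 1, Eif2ak3, had an unadjusted p under 0.05 in the pooled comparison. Eif2ak1 encodes HRI, the heme-regulated kinase that acts downstream of DELE1. It had 11.66, 11.37, 11.62, 11.23 and 11.67 on OMA1 ASO1 arrays, 11.57, 11.30 and 11.79 on OMA1 ASO2 arrays, and 11.20, 11.52, 11.42, 11.36 and 11.70 on CTRL ASO arrays. The ranges coincided, and the log2 fold change was 0.09 (SE 0.144, 95% interval -0.22 to 0.39, adjusted p = 0.882).

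Eif2ak2 encodes PKR, the interferon-inducible kinase that binds double-stranded RNA. It had 8.12, 8.16, 8.29, 8.48 and 7.08 on OMA1 ASO1 arrays, 7.73, 7.64 and 7.08 on OMA1 ASO2 arrays, and 6.72, 7.21, 7.12, 7.97 and 7.43 on CTRL ASO arrays. Replicates 1 to 4 of OMA1 ASO1 lay above every CTRL ASO array, while OMA1 ASO1 replicate 5 lay among them. Its log2 fold change of 0.53 (SE 0.258, 95% interval -0.01 to 1.07, adjusted p = 0.406) was the highest of all members and did not pass. It was 0.73 with OMA1 ASO1 (adjusted p = 0.252) and 0.19 with OMA1 ASO2 (adjusted p = 0.880).

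Eif2ak3 encodes PERK, the kinase of the endoplasmic reticulum. It had 7.59, 8.16, 7.63, 7.81 and 7.17 on OMA1 ASO1 arrays, 7.62, 7.23 and 7.90 on OMA1 ASO2 arrays, and 7.88, 7.78, 8.41, 8.21 and 8.16 on CTRL ASO arrays. Most OMA1 ASO arrays were at the low end of the CTRL ASO range or below it, but the groups overlapped, with a log2 fold change of -0.45 (SE 0.179, 95% interval -0.82 to -0.07, adjusted p = 0.286). Eif2ak4 encodes GCN2, which senses uncharged tRNA and ribosome stalling. It had 6.82, 6.17, 6.83, 6.90 and 7.35 on OMA1 ASO1 arrays, 6.47, 7.08 and 7.84 on OMA1 ASO2 arrays, and 6.99, 7.23, 6.88, 6.66 and 7.29 on CTRL ASO arrays. Its log2 fold change was -0.08 (SE 0.229, 95% interval -0.56 to 0.40, adjusted p = 0.939), and both the lowest and the highest array were OMA1 ASO arrays.

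The 5 subunits of eIF2B, the GTP exchange factor of eIF2, did not pass either. Eif2b1, the alpha subunit, had 8.94, 8.92, 8.92, 9.07 and 9.30 on OMA1 ASO1 arrays, 8.79, 8.66 and 9.15 on OMA1 ASO2 arrays, and 9.13, 8.95, 9.41, 8.83 and 8.68 on CTRL ASO arrays. Eif2b2, the beta subunit, had 6.78, 6.93, 7.60, 6.56 and 7.76 on OMA1 ASO1 arrays, 7.43, 6.68 and 7.39 on OMA1 ASO2 arrays, and 7.09, 7.13, 8.61, 7.83 and 7.02 on CTRL ASO arrays. In Eif2b1 the ranges overlapped over most of their length, while in Eif2b2 OMA1 ASO arrays reached below and CTRL ASO arrays above the shared range. The log2 fold changes were -0.03 (SE 0.155, adjusted p = 0.967) for Eif2b1 and -0.40 (SE 0.275, adjusted p = 0.623) for Eif2b2. Eif2b3, the gamma subunit, had 9.02, 8.75, 8.97, 9.29 and 9.79 on OMA1 ASO1 arrays, 8.61, 8.94 and 8.71 on OMA1 ASO2 arrays, and 9.39, 9.49, 9.22, 9.22 and 8.98 on CTRL ASO arrays. All 3 OMA1 ASO2 arrays lay below the CTRL ASO arrays, but the difference of -0.51 did not pass (adjusted p = 0.381), and the pooled value was -0.25 (SE 0.186, adjusted p = 0.659). Eif2b4, the delta subunit, was at 6.26, 5.89, 6.24, 6.12 and 6.04 with OMA1 ASO1, 6.40, 5.37 and 6.16 with OMA1 ASO2, and 6.35, 6.52, 6.98, 5.98 and 5.82 with CTRL ASO. It was above background on 9 of 13 arrays, and its highest array, CTRL ASO replicate 3, had a background of 6.03. Eif2b5, the catalytic epsilon subunit, had 7.51, 6.90, 6.15, 6.56 and 7.35 on OMA1 ASO1 arrays, 6.61, 6.75 and 7.13 on OMA1 ASO2 arrays, and 7.001, 6.93, 7.11, 6.86 and 6.23 on CTRL ASO arrays. Their log2 fold changes were -0.27 (SE 0.205, adjusted p = 0.663) and 0.05 (SE 0.219, adjusted p = 0.969), both within the spread between arrays.

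**Figure D4:**
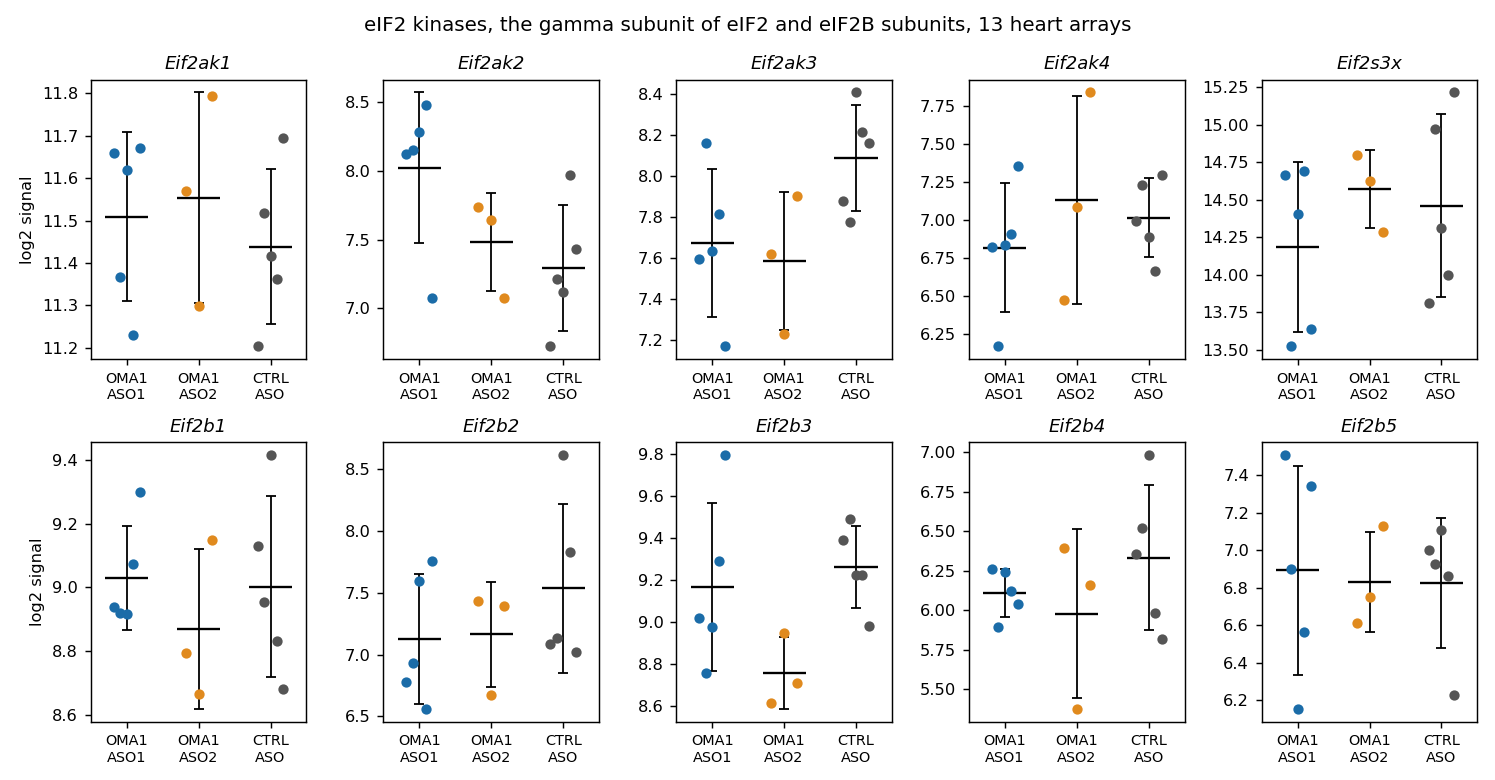
Log2 signal (y axis, each panel with its own range that does not start at 0) of the 4 eIF2 alpha kinases, Eif2s3x and the 5 eIF2B subunits, by treatment. Points are arrays, lines are means and bars are ± 1 SD (n = 5, 3 and 5). The OMA1 ASO arrays of both ASOs combined overlap the CTRL ASO arrays in every panel. All 3 OMA1 ASO2 arrays of Eif2b3 (8.61 to 8.94) lie below the CTRL ASO arrays, and 4 of 5 OMA1 ASO1 arrays of Eif2ak2 lie above them.

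In eIF3, the scaffold that joins the small ribosomal subunit to the mRNA, 1 of 12 measured subunits was lower and 0 were higher. Of all clusters, 0.806% were lower and 0.23% higher, and 1.53% and 0.494% of those above background on all arrays. The other 11 subunits had log2 fold changes of -0.71 to 0.17 with a median of -0.26. Of these, 9 were below 0, beside 47.6% of all clusters and 53.4% of those above background on all arrays. With OMA1 ASO2 their median was -0.12 and 8 were below 0, beside 49.0% of all clusters. Eif3d, a subunit that can itself bind the cap of some mRNAs, had 10.37, 9.66, 10.33, 10.23 and 10.75 on OMA1 ASO1 arrays, 10.16, 9.97 and 10.01 on OMA1 ASO2 arrays, and 10.61, 11.13, 11.02, 10.98 and 10.73 on CTRL ASO arrays. OMA1 ASO1 replicate 5 alone reached the CTRL ASO range, and the log2 fold change was -0.71 (SE 0.173, adjusted p = 0.0377). Without that array the adjusted p was 0.00829 and the log2 fold change -0.79. As the array left out was the one in the CTRL ASO range, a larger difference was fixed in advance. Leaving out other single arrays gave limma adjusted p-values of up to 0.134. Eif3a and Eif3l followed with -0.58 (adjusted p = 0.139) and -0.54 (adjusted p = 0.121). The 2 highest were Eif3m at 0.17 and Eif3f at 0.14. Eif3e and Eif3k, with -0.04 and -0.05, had 95% intervals of -0.41 to 0.34 and -0.38 to 0.29. Thus Eif3c stood at a log2 fold change whose interval (-1.995 to -1.40) lay wholly below the estimates of the other 11 subunits; the differences between subunits were not tested.

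Of 10 measured eIF4 cap-binding and helicase genes, 0 passed at 0.01 and 2 at 0.05, both lower. At 0.05, 1.68% of all clusters were lower and 0.603% higher, and 3.19% and 1.35% of those above background on all arrays. Eif4a1, the RNA helicase of eIF4F, had 12.90, 12.72, 12.54, 12.46 and 13.40 on OMA1 ASO1 arrays, 12.56, 12.43 and 12.28 on OMA1 ASO2 arrays, and 13.59, 13.66, 13.39, 13.42 and 13.31 on CTRL ASO arrays. All OMA1 ASO arrays but OMA1 ASO1 replicate 5 lay below the CTRL ASO range. The log2 fold change was -0.82 (SE 0.176, adjusted p = 0.0178), and without that array it was -0.92 (adjusted p = 9.55e-04). Eif4b, the cofactor that stimulates eIF4A, had 11.49, 11.85, 11.67, 12.07 and 11.91 on OMA1 ASO1 arrays, 11.82, 11.52 and 12.58 on OMA1 ASO2 arrays, and 12.52, 12.76, 12.42, 12.81 and 12.74 on CTRL ASO arrays. Here OMA1 ASO2 replicate 3 was the one array in the CTRL ASO range, with a log2 fold change of -0.79 (SE 0.176, adjusted p = 0.0231) over all arrays and -0.89 (adjusted p = 0.00300) without it. For both genes the array left out was the one in the CTRL ASO range, so a larger difference was fixed in advance. Leaving out other single arrays gave limma adjusted p-values of up to 0.0676 for Eif4a1 and 0.0817 for Eif4b.

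The cap-binding proteins themselves lay on the other side of 0. Eif4e had a log2 fold change of 0.46 (95% interval 0.11 to 0.81, adjusted p = 0.217), its relatives Eif4e3 and Eif4e2 had 0.30 (adjusted p = 0.345) and 0.20 (adjusted p = 0.605), and none of them passed. Eif4e had 12.98, 12.67, 13.02, 12.76 and 12.30 on OMA1 ASO1 arrays, 12.99, 13.02 and 12.26 on OMA1 ASO2 arrays, and 12.52, 12.34, 12.30, 12.17 and 12.13 on CTRL ASO arrays. OMA1 ASO1 replicate 5 and OMA1 ASO2 replicate 3 lay in the CTRL ASO range and the other 6 above it. Eif4g2, a scaffold relative of eIF4G, had -0.06, and Eif4h and Eif4a3 had -0.15 and -0.11. Eif4g3 was above background on 1 array and Eif4e1b on 0, so no fold is given for them.

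The remaining eIF4E-binding genes did not pass. Eif4ebp2, the relative of Eif4ebp1, had 9.24, 8.21, 8.19, 8.36 and 7.29 on OMA1 ASO1 arrays, 8.39, 7.64 and 8.71 on OMA1 ASO2 arrays, and 9.07, 8.93, 9.13, 8.97 and 8.39 on CTRL ASO arrays. OMA1 ASO1 replicate 1 was the highest array of all and OMA1 ASO1 replicate 5 the lowest, with a log2 fold change of -0.64 (SE 0.259, adjusted p = 0.289). Eif4enif1, the transporter that carries eIF4E into the nucleus, had 9.05, 9.22, 8.65, 8.76 and 9.30 on OMA1 ASO1 arrays, 9.47, 8.84 and 8.75 on OMA1 ASO2 arrays, and 8.92, 9.07, 9.06, 9.27 and 9.51 on CTRL ASO arrays, which overlapped (log2 fold change -0.16, SE 0.169, adjusted p = 0.779).

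Among the other members 0 passed. The 7 genes of scanning, tRNA delivery and subunit joining had log2 fold changes of -0.55 (Eif1ad) to 0.23 (Eif5b). Eif1a, which shares most of its sequence with Eif1ax, had -0.49 with a wide 95% interval of -1.27 to 0.29, with OMA1 ASO1 replicate 5 at 12.39 and the other 7 OMA1 ASO arrays at 9.40 to 10.02, against 10.09 to 11.05 on CTRL ASO arrays. Eif5a, which helps ribosomes through stalling peptide bonds, had -0.64 (95% interval -1.02 to -0.27, adjusted p = 0.0802). Eif6, which keeps the large ribosomal subunit free, had -0.56 (adjusted p = 0.360), and Eif5a2 had -0.28 (adjusted p = 0.763), each above background on 11 of 13 arrays. Eif4a3l1, a near-identical copy of Eif4a3, was above background on 1 array. Signals of such near-identical pairs (Eif4a3 and Eif4a3l1, Eif1a and Eif1ax, Eif3j2 and Eif3j1, Eif1b and Eif1, Eif2s3x and its Y-linked copy) are uncertain, since probes may bind both.

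**Figure D5:**
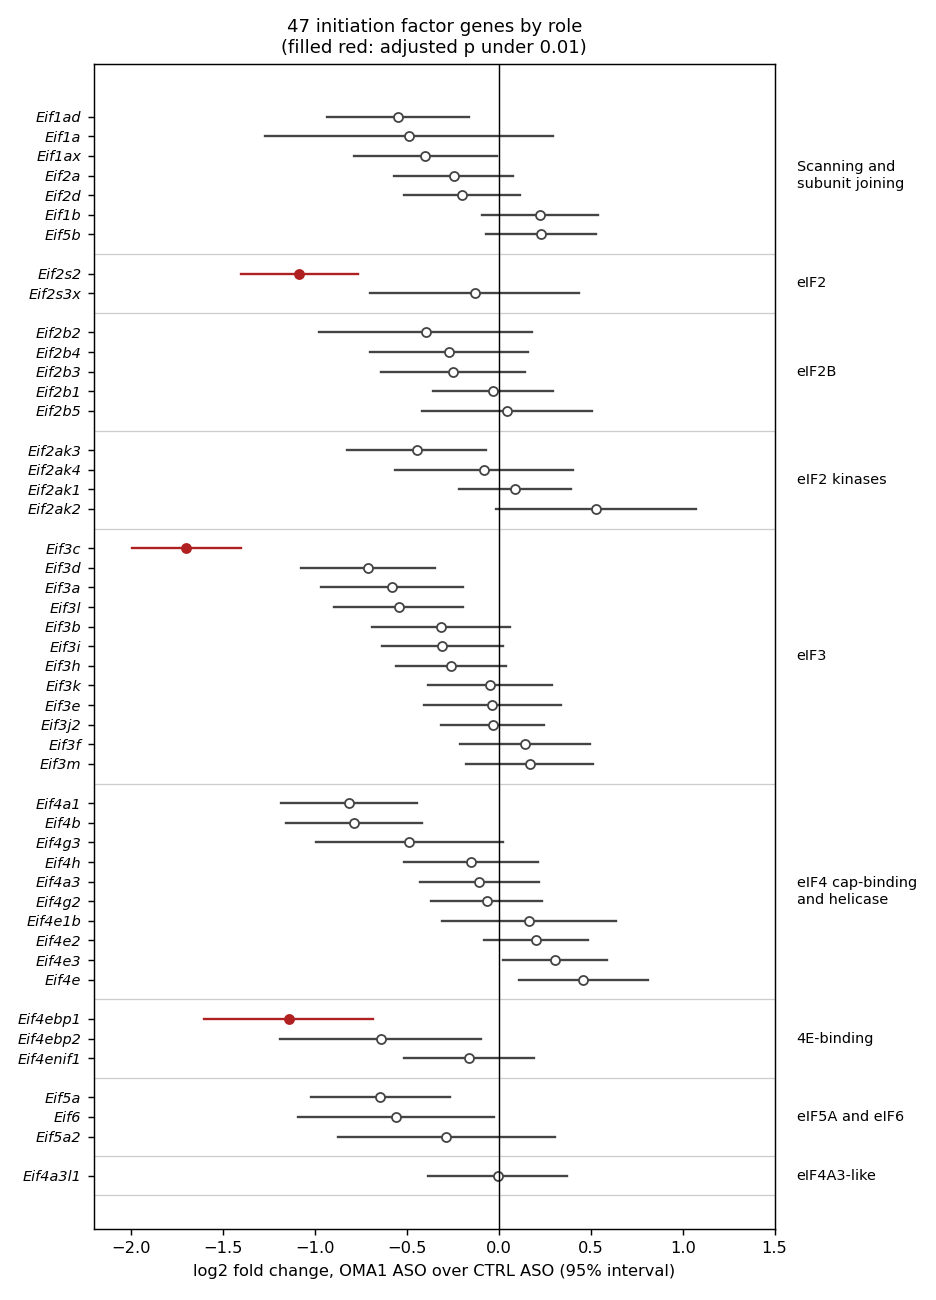
Log2 fold change of the 47 members in OMA1 ASO over CTRL ASO hearts (x axis; points are estimates and lines 95% intervals from limma, n = 8 and 5 arrays), ordered by role. The 3 filled red points, Eif2s2 at -1.08, Eif3c at -1.70 and Eif4ebp1 at -1.14, passed the adjusted p under 0.01, and 36 of the 47 estimates lie below 0. Members below background on most or all arrays, Eif4g3, Eif4e1b and Eif4a3l1, are drawn and counted as well.

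The upstream sequence of Eif3c and Eif2s2, the members called with each ASO, is shown because both held a near-identical stretch of 16 bases. The windows are the 250 bases before the annotated start of each gene in RefSeq (GRCm38.p6), at chr7:126566367-126566616 for Eif3c and chr2:154892907-154893156 for Eif2s2, both on the minus strand and read 5′ to 3′ toward the gene. Capitals mark the longest stretch that both windows share on either strand with at most 1 mismatch, AACTACAANTCCCAGT, with N at the mismatch.
Eif3c: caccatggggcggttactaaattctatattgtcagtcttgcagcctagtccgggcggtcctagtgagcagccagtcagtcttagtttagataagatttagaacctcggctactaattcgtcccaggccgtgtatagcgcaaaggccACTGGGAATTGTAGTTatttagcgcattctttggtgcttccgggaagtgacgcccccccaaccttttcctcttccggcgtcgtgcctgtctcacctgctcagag
Eif2s2: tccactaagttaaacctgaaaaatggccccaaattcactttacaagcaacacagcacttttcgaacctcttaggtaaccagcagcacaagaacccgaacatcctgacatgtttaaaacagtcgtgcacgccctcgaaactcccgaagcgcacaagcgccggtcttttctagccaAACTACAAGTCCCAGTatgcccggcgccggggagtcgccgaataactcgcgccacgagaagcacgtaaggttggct
The stretch lay 104 to 89 bases before the start of Eif3c, on the opposite strand, and 76 to 61 bases before that of Eif2s2, on the strand of the gene. It resembles the known binding element of ZNF143 and THAP11, factors found at many promoters.

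Since the stretch was read from these windows, its presence in both is how it was defined. Of the 47 members, 36 had a promoter entry (250 bases before to 50 after the start), and it occurred in no further member. It matched 3 of all 32851 such windows (0.00913%) on either strand, 107 (0.326%) with 1 further mismatch and 399 (1.21%) with up to 2, and even then no other of the 36 members held it. The composite element of CHOP and ATF4, written TGATGNAA and searched on both strands, occurred in 3.97% of all windows, in 4.51% of genes with an entry, in 2.67% of the 5998 such genes above background on all arrays and in 1 of the 36 members, Eif2s3x. The E-box CACGTG, the same on both strands, occurred in 7.15% of all windows, in 8.09% of genes with an entry, in 12.1% of those above background on all arrays and in 9 of the 36 members, among them Eif4a1 and Eif4e, whose log2 fold changes were -0.82 and 0.46. None of these motifs contains another. A match describes the letters only, and binding was not measured. Eif4ebp1 was not among the genes with an entry.

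Genes that act with the members were read from lists of the same pathways. Of 9 measured regulators of the eIF2 pathway, Oma1 alone passed, and Nck1 (0.46, adjusted p = 0.303), Dnajc3, an inhibitor of PERK (0.37, adjusted p = 0.688), and Ppp1r15b, a subunit of an eIF2 alpha phosphatase (-0.30, adjusted p = 0.725), did not. Ppp1r15a, the stress-induced phosphatase subunit, was below background on all 13 arrays. All 8 measured genes that the ISR is known to raise were lower. Atf4 itself had a log2 fold change of -2.99 (adjusted p = 5.44e-06), with 11.17, 10.90, 10.64, 11.15 and 12.70 on OMA1 ASO1 arrays, 10.92, 10.53 and 11.29 on OMA1 ASO2 arrays, and 14.59, 14.49, 14.13, 13.94 and 13.60 on CTRL ASO arrays. OMA1 ASO1 replicate 5 was the OMA1 ASO array nearest to the CTRL ASO range for Atf4, as for Eif3d and Eif4a1. It was also the nearest for Ddit3 (9.32) and for Trib3, which was below background there. Other arrays were the nearest for Atf5 (OMA1 ASO1 replicate 3 at 8.17), for Asns and Mthfd2 (OMA1 ASO1 replicate 4 at 11.58 and 12.38), and for Chac1, Psat1 and Eif3c.

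Of 18 measured partners of initiation, such as poly(A)-binding proteins and eIF4E kinases, 0 passed at 0.01 (limma; 5 had an unadjusted p under 0.05), and Mknk1, an eIF4E kinase (-0.87, adjusted p = 0.0262), and Pabpc1, the main poly(A)-binding protein (-0.60, adjusted p = 0.0427), passed at 0.05. Of the 18, 8 were below 0 and the median was 0.04. Of 11 genes of the mTORC1 axis, which controls 4E-BP1, Deptor, an mTOR inhibitor, was lower (-1.52, adjusted p = 3.87e-04), and Rps6 and Mlst8 had -0.40 (adjusted p = 0.262) and -0.38 (adjusted p = 0.369). All 11 were below 0 in the pooled comparison, from -1.52 to -0.008 with a median of -0.17, and 4 had an unadjusted limma p under 0.05. With OMA1 ASO1, 9 of 11 were below 0, against 48.2% of all clusters, and with OMA1 ASO2 all 11, against 49.0%. Sesn2, among the 11, was below background on all 13 arrays. Of 11 cytosolic elongation and termination factors, Eef1a1, which delivers aminoacyl-tRNA, was lower (-0.87, adjusted p = 4.21e-04), Eef2 had -0.63 (adjusted p = 0.0274), and 10 of 11 were below 0 with a median of -0.37. Of 9 mitochondrial translation factors, 0 passed (limma; 1 had an unadjusted p under 0.05, Mtrf1 at 0.42), 3 were below 0 and the median was 0.10. Over all clusters, 0.806% were lower and 0.23% higher at an adjusted p under 0.01, and 1.68% and 0.603% at 0.05. There, 47.6% lay below 0 with a median of 0.01, and 53.4% with a median of -0.03 among clusters above background on all arrays. The share of all clusters with an unadjusted p under 0.05 is not given. The difference between these lists was not tested.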

How the data were processed

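The deposited log2 signals were made by the authors with Transcriptome Analysis Console by gene-level SST-RMA, which normalizes between arrays; median signals were 5.24 to 5.34. Of 28846 probe sets, 6640 controls were left out and 22206 transcript clusters kept, of which 19572 carried 1 symbol, 0 several and 2634 none. For the array annotation, a genome build was not given in the sources used here. Each gene was taken by its brightest cluster.

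Linear models were run in limma 3.58.1 (lmFit, eBayes; R 4.3.3), and p-values were adjusted by Benjamini-Hochberg over all clusters. The pooled comparison set 8 OMA1 ASO against 5 CTRL ASO arrays. The 3 others came from a model of 3 group means with a shared spread. The adjusted p threshold was 0.01. The fit was tested on simulated data. Each array was a separate sample by its labels, which mark no technical replicates but do not name the mouse. The paper describes each column of its heat map of these hearts as a mouse. The number of arrays limits the precision. Correlations between arrays were 0.972 to 0.992.

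Members, gene lists and motifs were chosen with earlier results of these data known. Named in full were called members, the eIF2 kinases, eIF2 and eIF2B subunits and 4E-binding genes. Of listed genes that are no members, up to 4 per list by p were named. Eif4a1, Eif4b, Eif3d, Eif4e, Eif1a, Ppp1r15b and Dnajc3 fall outside that rule and were given array values or named after their values were seen. Alternatives were a trend with robust fitting, 2 scalings, a signal filter, array weights, Y-linked genes as a covariate (Kdm5d and Uty), a replicate block, the equal-weight mean of both ASOs, only the groups compared, a threshold of 0.05 and leaving out each array. Leaving out both OMA1 ASO1 arrays that stood apart was added after seeing the data.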

Additional observations from a re-analysis of the deposited data

Results flagged for a closer look

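In each treatment of 5 arrays, the highest or lowest array of every member was set against the others by the gap to its nearest neighbour over the whole range. Of 94 such sets, 8 held an array beyond Dixon's critical value, where chance gives about 1 in 20, or 4.7. In OMA1 ASO1, replicate 5 accounted for 4 of them: Eif1a at 12.39 was above the next array at 10.02, Eif5a at 15.00 above 14.47, and Eif3i at 8.38 above 7.86, while Eif2ak2 at 7.08 was below 8.12. Replicate 5 was also the highest of its 5 arrays for 23 of the 47 members, against 5 to 8 for the other arrays of that treatment. Eif4e2 on OMA1 ASO1 replicate 3 was at 10.67, above 10.36. In CTRL ASO, replicate 5 was low for Eif2b5 (6.23, next 6.86) and Eif4ebp2 (8.39, next 8.93), and replicate 3 was high for Eif4g3 (6.08, next 5.27). The cause of these values was not tested.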

How the results depend on the processing

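The pooled count of 3 called members was 5 with array weights, 5 without both OMA1 ASO1 arrays that stood apart, 6 at an adjusted p under 0.05, and 2 to 5 when single arrays were left out, with 5 without OMA1 ASO1 replicate 5. For OMA1 ASO1, the count of 2 was 4 at 0.05 and 1 to 4 when single arrays were left out (1 without CTRL ASO replicate 2, OMA1 ASO1 replicate 2 or replicate 3, and 4 without OMA1 ASO1 replicate 5). For OMA1 ASO2, the count of 2 was 1 to 3 when single arrays were left out. For OMA1 ASO2 over OMA1 ASO1 it was 0 throughout. The median of the members stayed between -0.26 and -0.17 in the pooled comparison. With OMA1 ASO2 it was -0.23, and -0.27 to -0.10 when single arrays were left out, the last without OMA1 ASO2 replicate 2. Eif3c passed in the pooled comparison and with each ASO under all 22 alternatives (pooled log2 fold change -1.74 to -1.64, adjusted p = 3.66e-08 to 3.26e-05), and Eif2s2 passed in the pooled comparison under all 22 (adjusted p = 2.80e-05 to 0.00238). Eif4ebp1 lost its pooled call under 12 of 22 (adjusted p = 0.00143 to 0.0306). The shares of all clusters called under each alternative are not given beside these counts. The cause of these shifts was not tested.

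With the replicate number as a block, the count for OMA1 ASO2 was 1, as Eif2s2 had an adjusted p of 0.0118, and no other count of calls changed. Arrays with the same number in different treatments share only a number: the deviations of 11 same-numbered pairs correlated at -0.11 to 0.18, and those of 44 other pairs at -0.13 to 0.19. Of 13 arrays, 5 correlated best with a same-numbered one.

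Signs near 0 turned for members that did not pass. Eif2b1 had 0.016 after quantile normalization again, and leaving out single arrays gave -0.11 to 0.071 (above 0 without CTRL ASO replicate 3 or OMA1 ASO2 replicate 2). Eif2b5 had -0.015 with array weights, -0.14 without both OMA1 ASO1 arrays that stood apart, and -0.10 to 0.15 when single arrays were left out. Such omissions gave -0.21 to 0.030 for Eif2ak4 (above 0 without OMA1 ASO1 replicate 2) and -0.29 to 0.057 for Eif2s3x (above 0 without CTRL ASO replicate 5). Taking the mean of all clusters of a gene gave no other value, since every member had 1 cluster. The scalings shifted the median of all clusters by less than 0.01.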

Other observations

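The protein-coding genes nearest to the called members in the RefSeq order (GRCm38.p6) were read after the members' values were seen, 3 on each side. Around Eif3c, all 6 were measured and 0 passed, with log2 fold changes of -0.47 (Atxn2l) to 0.37 (Tufm, the mitochondrial elongation factor). Cln3, the next gene on the upstream side of Eif3c, had -0.14 and was above background on 2 arrays. Around Eif2s2, 4 of 6 were measured and 0 passed, from -0.35 (Ahcy) to 0.09 (Zfp341). Around Eif4ebp1, 5 of 6 were measured, all of them below background on all arrays.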
